A study of Homo sapiens with 6 samples.

Results

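The genes described here are the antisense long noncoding RNA genes, taken as every gene of the series table whose symbol ends in -AS with or without a number. There were 827 of them among 21134 genes, which is 3.91%. RNA was sequenced from cardiomyocytes differentiated with small molecules from H9, a human embryonic stem cell line, and the study calls the cells hiPSC-CMs. The control group was given no treatment (n = 2), the alcohol group 100 mM alcohol for 24 h (n = 2), and the co-treated group 100 mM alcohol with 1 μM losartan, a blocker of the angiotensin II receptor AT1R, for 24 h (n = 2). All 6 libraries came from this 1 line, and no label says that the libraries of a group came from separate cultures, so p-values measure the spread between these libraries, which may be technical. The study words the losartan step in different ways, as given beforehand in its results text and as given at the same time as alcohol in its methods. The labels name both agents together, and the name co-treated follows them. No library was of cells given losartan alone.

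An antisense RNA is transcribed from the strand opposite to another gene, its sense gene, whose symbol stands before the -AS. Some are divergent transcripts that leave the promoter of the sense gene in the other direction, some run through the exons of the sense gene, and some are hosts that carry small nucleolar RNAs (snoRNAs) in their introns. They are spliced like messenger RNA, mostly do not code for protein, and are known for acting near the site where they are made, through the act of transcription or by pairing with the sense RNA. In the heart, examples such as HAND2-AS1 lie beside the transcription factors that build the organ.

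The symbol is a name and not a measurement. A sense gene was listed under the name before -AS for 789 of the 827, and 9 more were found under a newer symbol of the sense gene, such as MIR1-1HG for C20orf166. For 29 no sense gene was used. The 798 antisense genes with a sense gene belonged to 764 sense genes, since 31 sense genes had 2 or 3 antisense genes. RefSeq held a record for 823. Of these, 803 were lncRNA, 8 antisense RNA and 6 transcribed pseudogenes, and 6 are now recorded as protein coding, such as MMP24-AS1 and NCBP2-AS2. A different current symbol was given for 133, of which 83 now end in -DT, for divergent transcript. C20orf166-AS1 is now CRMA, LRRC75A-AS1 is SNHG29, DNAJC3-AS1 is DNAJC3-DT and SLC2A1-AS1 is SLC2A1-DT. The deposited symbols are used below.

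The strand and exons were read from GENCODE release 29 on GRCh38 where both genes of a pair had a model, which placed 707 pairs. In 337 of these the exons of both genes overlapped on opposite strands. In 181 the start sites lay within 1000 bases with no shared exon bases, in 148 the gene bodies overlapped without shared exon bases, and in 41 the genes lay apart. The median distance between start sites was 175 bases in these 181 pairs, which are called divergent below. Whether the genes of such a pair run away from each other was not checked. The sources used here do not say whether reads were counted by strand. Without strand, reads of a gene and of its antisense partner cannot be told apart where their exons overlap.

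RefSeq promoter windows, 250 bases before to 50 after a start on GRCh38.p14, were found for 611 of the 827 antisense genes. In 178 of the 520 pairs with a window for both genes (34.2%) the windows shared bases on opposite strands, by a median of 207 bases. The windows of 3 such antisense genes are shown because 1 stretch of DNA starts both RNAs of the pair. The window of HAND2-AS1 at chr4:173530208-173530507 shared 272 bases with that of HAND2, the window of DNAJC3-AS1 287 with DNAJC3, and the window of SLC2A1-AS1 280 with SLC2A1. HAND2-AS1 also has a window at chr4:173528350-173528649, which is not shown. Capitals mark every match, on either strand, to the TATA box TATAAA, to the letters CCAAT of the NF-Y motif, to the GC box GGGCGG, to the letters ACGTG, which also lie inside the E-box CACGTG, to the cyclic AMP element TGACGTCA or to the CArG box.
HAND2-AS1, plus strand: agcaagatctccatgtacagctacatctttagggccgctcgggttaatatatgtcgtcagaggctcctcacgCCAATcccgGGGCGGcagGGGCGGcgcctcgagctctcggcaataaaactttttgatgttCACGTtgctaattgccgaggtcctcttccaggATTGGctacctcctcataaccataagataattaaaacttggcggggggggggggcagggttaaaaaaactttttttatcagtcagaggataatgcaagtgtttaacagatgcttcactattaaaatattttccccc
DNAJC3-AS1, chr13:95676876-95677175, minus strand: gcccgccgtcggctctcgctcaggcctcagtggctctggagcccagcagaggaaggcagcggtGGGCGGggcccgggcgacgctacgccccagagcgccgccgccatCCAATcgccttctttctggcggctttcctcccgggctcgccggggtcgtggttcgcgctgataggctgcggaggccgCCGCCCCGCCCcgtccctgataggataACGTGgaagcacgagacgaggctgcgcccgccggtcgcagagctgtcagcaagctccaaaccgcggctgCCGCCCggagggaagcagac
SLC2A1-AS1, chr1:42958799-42959098, plus strand: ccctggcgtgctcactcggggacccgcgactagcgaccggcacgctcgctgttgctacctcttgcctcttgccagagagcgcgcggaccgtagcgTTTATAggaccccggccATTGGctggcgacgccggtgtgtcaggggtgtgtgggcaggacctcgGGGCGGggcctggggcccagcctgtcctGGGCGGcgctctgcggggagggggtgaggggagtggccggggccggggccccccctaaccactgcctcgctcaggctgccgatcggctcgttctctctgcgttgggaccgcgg
The next windows belong to C20orf166-AS1 and EPB41L4A-AS1, which had the smallest p-values of the antisense genes with higher values under alcohol, and to LRRC75A-AS1, the most abundant of them all.
C20orf166-AS1, chr20:62551512-62551811, minus strand: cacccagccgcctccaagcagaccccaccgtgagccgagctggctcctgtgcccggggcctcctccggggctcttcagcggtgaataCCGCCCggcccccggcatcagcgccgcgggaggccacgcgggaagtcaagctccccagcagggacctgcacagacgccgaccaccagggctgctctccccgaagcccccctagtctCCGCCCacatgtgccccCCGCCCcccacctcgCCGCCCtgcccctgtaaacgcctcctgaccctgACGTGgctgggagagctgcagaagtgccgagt
EPB41L4A-AS1, chr5:112160276-112160575, plus strand: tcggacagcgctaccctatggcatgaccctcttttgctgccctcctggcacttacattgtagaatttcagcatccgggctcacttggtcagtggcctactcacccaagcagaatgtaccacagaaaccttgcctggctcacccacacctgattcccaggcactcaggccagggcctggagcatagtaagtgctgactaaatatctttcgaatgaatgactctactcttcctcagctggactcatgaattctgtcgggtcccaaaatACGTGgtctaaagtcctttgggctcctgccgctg
LRRC75A-AS1, chr17:16438737-16439036, plus strand: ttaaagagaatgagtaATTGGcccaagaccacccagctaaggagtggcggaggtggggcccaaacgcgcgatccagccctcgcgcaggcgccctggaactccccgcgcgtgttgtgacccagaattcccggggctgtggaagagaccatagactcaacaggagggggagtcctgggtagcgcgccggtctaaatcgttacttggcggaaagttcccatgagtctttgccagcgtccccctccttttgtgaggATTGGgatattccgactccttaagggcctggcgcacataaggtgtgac

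The motif shares use 1 window for each gene, the first listed, which for HAND2-AS1 is not the window shown. GGGCGG was found in 49.1% of the 611 antisense windows, in 62.5% of the windows of sense genes and in 44.6% of the 27305 windows of all genes. In this paragraph all genes means every RefSeq gene with a window, whether or not the series table lists it. CCAAT was found in 30.8% of antisense windows against 35.7% of all, ACGTG in 24.1% against 21.6%, CACGTG in 8.51% against 7.43%, and TGACGTCA in 1.96% against 1.98%. TATAAA was found in 7.20% of antisense windows against 11.95% of all genes, and the CArG box in 2 antisense windows (0.327%) against 1.29% of all. The median GC content of antisense windows was 61.3%, between that of all genes (58.3%) and that of sense genes (65.0%). A match describes the letters only and is no binding site.

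The depth was alike in the libraries, from 4898287 to 5051448 expected counts, and 3 counts, the limit that a count of 0 allows, were 0.594 to 0.612 CPM (counts scaled to library size). This limit covers counting error only, while each SE given below also includes the spread between libraries. The 9 cardiomyocyte markers, all listed, summed to 25446 to 25873 FPKM (expected counts scaled by transcript length and library size) in control, 18906 to 25103 in alcohol and 21601 to 23818 in co-treated libraries. The 4 endothelial markers summed to 4.65 to 4.92, 6.16 to 7.43 and 7.97 to 8.96 FPKM in the same order, carried by KDR, with VWF at 0 to 0.11 and CDH5 at 0.20 to 0.78 FPKM. The 4 endoderm markers summed to 34.7 to 36.3, 47.3 to 47.4 and 43.8 to 47.0 FPKM, with FOXA2 at 0 to 0.25 FPKM. So all 4 treated libraries were under both controls for the cardiomyocyte sum and above both for the endothelial and endoderm sums. MYL7 had the largest part of the cardiomyocyte sum, at 14512 and 16180 FPKM in control and 9321 to 12612 in treated libraries. TNNT2 was also under both controls in all 4 treated libraries, while PLN and RYR2 were above both. MYH6, MYH7, ACTN2, MYL2 and NKX2-5 overlapped between control and treated libraries. The part of these markers in the results below was not tested. The 6 fibroblast markers summed to 383 to 430 FPKM in control, 453 to 485 in alcohol and 430 to 490 in co-treated libraries. Both alcohol libraries were above both controls for this sum, while co-treated library 2 was level with control library 1. Over the 6 libraries the 3 neural markers summed to 5.45 to 7.57 FPKM and the 4 pluripotency markers to 9.08 to 16.1.

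Antisense genes were low in these cells. The median of their mean FPKM over the 6 libraries was 1.17, with quartiles of 0.321 and 3.67. The same median was 7.41 FPKM for their sense genes and 3.96 FPKM for all genes. A mean of at least 0.1 FPKM was reached by 723 of 827, at least 5 FPKM by 158, at least 20 FPKM by 33 and at least 100 FPKM by 5. At most 3 counts in every library were measured for 199, and 74 were above 0 in 1 library only. The 5 most abundant held 23.8% of the FPKM summed over the 827, and the 10 most abundant held 32.7%.

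**Figure D1:**
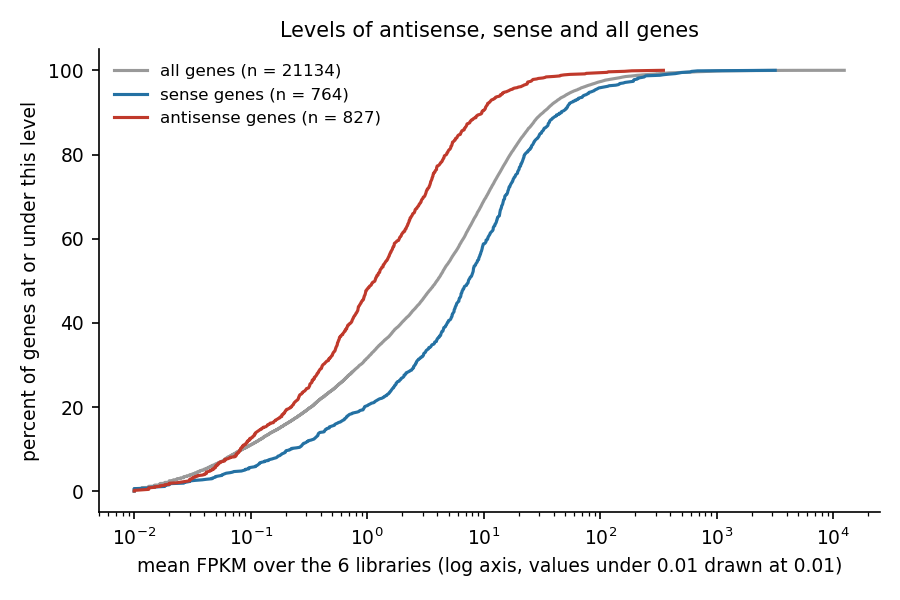
Cumulative percent of genes (vertical axis) at or under each mean FPKM over the 6 libraries (horizontal log axis), for the 827 antisense genes, their 764 sense genes and all 21134 genes. The antisense curve lies left of the others over most of its range, with a median of 1.17 FPKM against 7.41 for sense genes and 3.96 for all genes.

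LRRC75A-AS1, a snoRNA host gene with SNORD49A, SNORD49B and SNORD65 inside it, was the most abundant. It measured 312.14 and 333.30 FPKM in the control libraries, 333.96 and 394.85 in the alcohol libraries and 335.23 and 385.32 in the co-treated libraries. Its sense gene LRRC75A had 3.45 to 5.38 FPKM. All 4 treated libraries were slightly above both controls, with a log2 fold change of 0.14 for alcohol against control (adjusted p = 0.733 by edgeR's quasi-likelihood test), and the host stood far above its sense gene in every library.

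3 of the 10 most abundant are antisense to genes of the cytoskeleton and sarcomere. VIM-AS1, beside the intermediate filament gene VIM, measured 188.65 and 163.62 FPKM in control, 213.04 and 214.48 in alcohol and 217.13 and 124.91 in co-treated libraries. TTN-AS1, antisense to the gene of titin, the giant spring of the sarcomere, measured 120.61 and 116.65, then 110.58 and 111.22, then 117.14 and 113.15 FPKM in the same order. The co-treated libraries of VIM-AS1 lay further apart than the group means, while TTN-AS1 varied little in any group. The exons of VIM-AS1 overlap those of VIM by 641 bases, and VIM itself ran from 489.57 to 669.09 FPKM. ACTA2-AS1, the third most abundant, is described further on.

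Others were next to genes of metabolism, signalling and transcription. UGDH-AS1, whose sense gene makes UDP-glucuronate, ran from 80.90 to 105.44 FPKM over the 6 libraries. CBR3-AS1, beside a carbonyl reductase gene, ran from 64.03 to 87.09 FPKM. For CBR3-AS1 the control libraries overlapped with both treated groups, and for UGDH-AS1 the co-treated libraries were above the other 4. MIF-AS1, at the gene of the cytokine MIF, ran from 48.15 to 91.47 FPKM with its lowest values in alcohol library 2 and co-treated library 2. GATA6-AS1, beside the heart and endoderm transcription factor GATA6, ran from 43.07 to 65.85 FPKM. HIF1A-AS2, at the gene of the oxygen-regulated factor HIF1A, ran from 43.10 to 54.21 FPKM. Of these last 3, HIF1A-AS2 overlapped between all groups, the alcohol libraries of MIF-AS1 lay under its controls and the co-treated libraries of GATA6-AS1 lay above its controls, each with an unadjusted p above 0.05 by edgeR.

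Among 700 pairs whose antisense gene had a mean of at least 0.1 FPKM, the antisense gene was above its sense gene per length in 153 (21.9%), and in every library in 95. Among the 275 pairs in which both genes had 10 or more counts in every library the share was 20.0%, and the median ratio of antisense to sense mean FPKM was 0.383. Across the 700 pairs, antisense and sense mean FPKM had a Spearman rho of 0.32. This is a description over genes that share the same 6 libraries.

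The 5 pairs furthest on the antisense side, among those with 10 counts of the antisense gene in every library, had a sense gene at or near the limit of detection. CBR3-AS1 is set beside CBR3 at 0 to 0.36 FPKM, and FGD5-AS1, at 35.86 to 45.49 FPKM, beside FGD5 at 0 to 0.24 FPKM. DLGAP1-AS2 measured 18.25 to 25.17 FPKM and DLGAP1, a scaffold gene of neuronal synapses, 0.09 to 0.23. ERICH6-AS1 had 5.43 to 11.02 FPKM with ERICH6 at 0 to 0.19, and TP73-AS1 had 7.26 to 9.89 with TP73, a relative of p53, at 0.04 to 0.13. In these pairs the antisense RNA was measured in cells whose sense gene was hardly detected, in all 6 libraries. The ranking by ratio set no minimum for the sense gene, so it favours pairs whose sense gene is hardly detected. RefSeq records TP73-AS1 as a transcribed pseudogene. In pairs with both RNAs well measured the antisense gene could also be higher: UGDH-AS1 had 10.5 times the mean FPKM of UGDH, and OIP5-AS1, one of the antisense genes with a described function, 7.73 times that of OIP5.

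**Figure D2:**
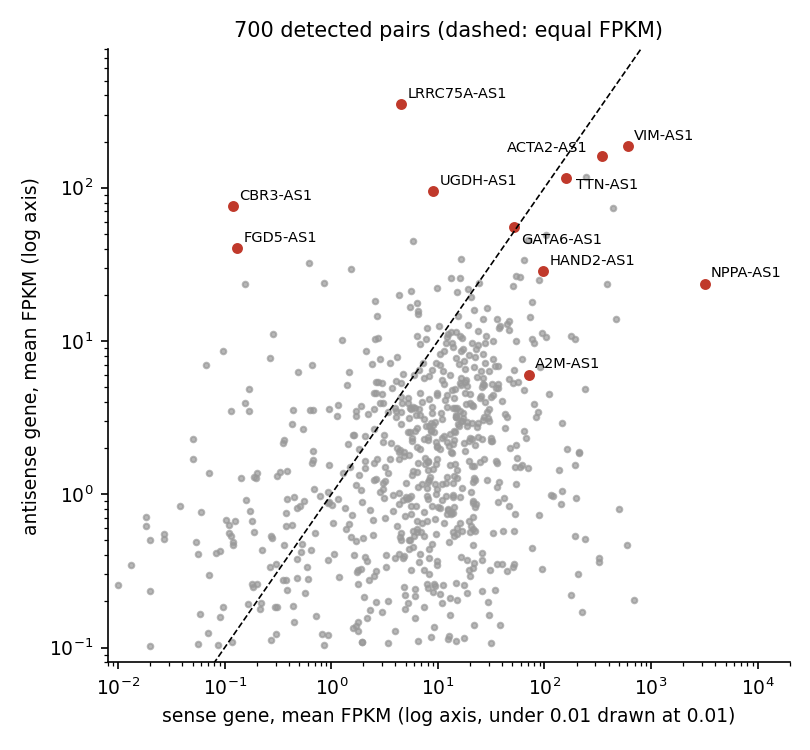
Mean FPKM over the 6 libraries of the antisense gene (vertical log axis) against that of its sense gene (horizontal log axis) for 700 detected pairs, with 11 pairs named in red and a dashed line of equal FPKM. Most points lie under the line, 153 lie above it, and CBR3-AS1, FGD5-AS1 and LRRC75A-AS1 lie far above it.

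Over the 6 libraries, Pearson's r between the log2 levels of an antisense gene and its sense gene was computed for pairs with 10 or more counts of both in every library. The median r was 0.26 in 137 pairs with overlapping exons, 0.18 in 75 divergent pairs, 0.22 in 20 pairs with overlapping bodies only and -0.14 in 9 pairs that lie apart. With exons shared, 49 of 137 had r above 0.5 and 10 had r below -0.5. Of the 75 divergent pairs 15 had r above 0.5 and 14 had r below -0.5. These are descriptions over 6 libraries that fall into 3 groups, and the pairs share those libraries, their depth and, where exons overlap, possibly reads.

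ACTA2-AS1 lies at chr10:88932684-88939974 (RefSeq, GRCh38.p14), and its exons share 516 bases with those of ACTA2, the gene of smooth muscle actin, which early cardiomyocytes also use. ACTA2-AS1 measured 254.30 and 211.55 FPKM in the control libraries, 178.77 and 93.94 in the alcohol libraries and 120.99 and 111.05 in the co-treated libraries. Both alcohol and both co-treated libraries lay under both controls, and the co-treated libraries lay between the alcohol libraries. The group means were 233 ± 30.2, 136 ± 60.0 and 116 ± 7.03 FPKM (SD, n = 2 each). The log2 fold change was -0.80 (SE 0.23) for alcohol against control, with an adjusted p of 0.206 by edgeR's quasi-likelihood test, and -1.05 (SE 0.23) for co-treated against control, with an adjusted p of 0.079 (0.0012 to 0.451 over the alternatives), so neither passed 0.05. Co-treated against alcohol gave -0.25 (SE 0.23, adjusted p = 0.945).

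ACTA2 had the same order of libraries at a higher level, except that control library 2 was its highest. It measured 506.88 and 580.20 FPKM in control, 336.76 and 203.10 in alcohol and 247.69 and 223.96 in co-treated libraries. Its log2 fold change was -1.04 (SE 0.20, adjusted p = 0.080 by edgeR) for alcohol against control and -1.25 (SE 0.20, adjusted p = 0.020) for co-treated against control. ACTA2 fell in the co-treated libraries and was the only called one of the 648 sense genes tested in any of the 3 comparisons. Pearson's r between ACTA2-AS1 and ACTA2 was 0.96 over the 6 libraries. Their exons overlap and the strand setting is not given, so reads of ACTA2 may be counted in ACTA2-AS1 and the reverse.

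All 4 smooth muscle markers were listed, ACTA2 among them. Their sum was 1689 to 1926 FPKM in control, 722 to 1451 in alcohol and 991 to 1036 in co-treated libraries. TAGLN, which binds actin, had the largest part of that sum and was lower in all 4 treated libraries than in both controls, at 825.53 to 997.94 FPKM in control, 340.02 to 688.82 in alcohol and 430.68 to 531.97 in co-treated libraries. CNN1, the gene of calponin, did not follow, with 416.88 and 279.07 FPKM in control, 421.72 and 177.47 in alcohol and 310.70 and 275.80 in co-treated libraries, so that its groups overlapped. MYH11, the smooth muscle myosin, was low, at 4.34 to 4.77 FPKM in control and 1.71 to 3.89 in treated libraries, each of which lay under both controls. The part of these markers in the result was not tested. In bulk RNA, fewer cells of a type and less RNA per cell cannot be told apart. Alcohol library 2 was the lowest for ACTA2-AS1, for the smooth muscle sum and for the cardiomyocyte sum. Without alcohol library 1 the log2 fold change for alcohol against control was -1.38 with an adjusted p of 0.0011, and without alcohol library 2 it was -0.38 with an adjusted p of 0.837.

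A2M-AS1 lies beside A2M, the gene of the protease inhibitor alpha-2-macroglobulin. It measured 3.90 and 6.27 FPKM in control, 5.89 and 9.33 in alcohol and 4.39 and 6.37 in co-treated libraries. The 3 groups overlapped. The log2 fold change was 0.54 (SE 0.30, adjusted p = 0.546 by edgeR) for alcohol against control and -0.50 (SE 0.29, adjusted p = 0.915) for co-treated against alcohol. When 1 library was left out these ran from 0.22 to 0.92, lowest without alcohol library 2, and from -0.81 to -0.17, nearest 0 without alcohol library 2. A2M was well above it, at 53.57 to 102.83 FPKM.

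**Figure D3:**
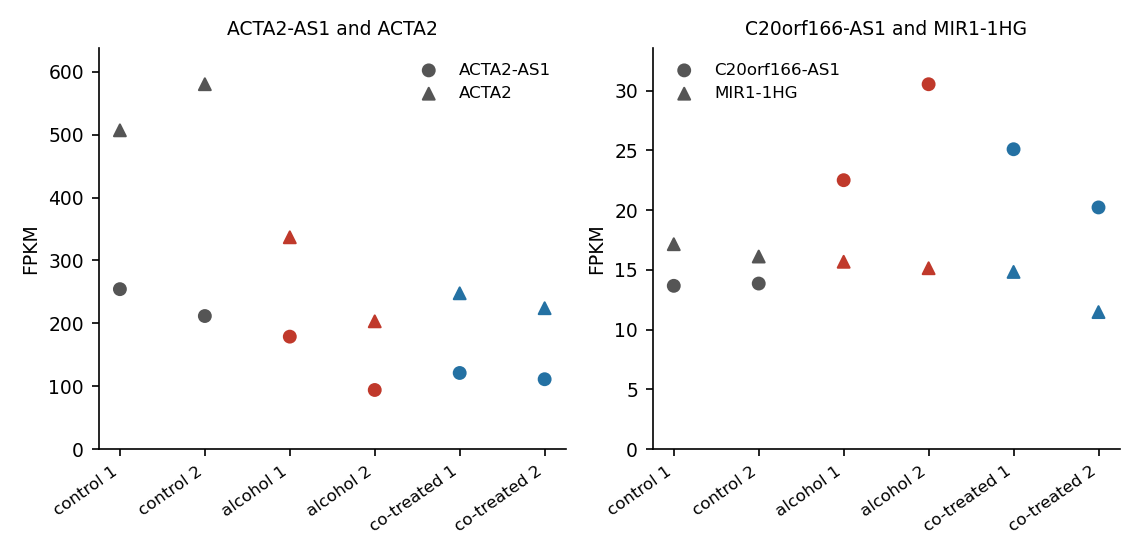
FPKM (vertical axes from 0) in each of the 6 libraries (horizontal axis) for ACTA2-AS1 and ACTA2, left, and for C20orf166-AS1 and MIR1-1HG, right, with circles for the antisense gene and triangles for the sense gene. ACTA2-AS1 and ACTA2 are both highest in the control libraries, while C20orf166-AS1 is lowest in control and MIR1-1HG is not.

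The effect of alcohol was read from alcohol against control. Of the 827 antisense genes, 414 (50.1%) passed the filter on low counts, against 70.6% of all genes. No antisense gene was called at an adjusted p of 0.05 by edgeR, against 0.067% of the 14926 genes tested. DESeq2, whose own filter left an adjusted p for 28 of the antisense genes, called 1, C20orf166-AS1, and limma on log2(FPKM + 1) called 0. At an unadjusted p of 0.05, 17 were higher (4.11%) and 8 lower (1.93%) with alcohol, against 5.27% and 5.78% of all genes tested. The median log2 fold change of the 414 was 0.04. Without alcohol library 1 edgeR called 3 (C20orf166-AS1, ACTA2-AS1 and PDCD4-AS1). The median SE of a log2 fold change was 0.35 for antisense genes and 0.19 for all genes tested.

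C20orf166-AS1 had the smallest p of the antisense genes in this comparison. It lies at chr20:62543070-62551561 (RefSeq, GRCh38.p14), in the locus that hosts the muscle microRNAs miR-1 and miR-133a. It measured 13.66 and 13.85 FPKM in control, 22.50 and 30.53 in alcohol and 25.09 and 20.22 in co-treated libraries. All 4 treated libraries were above both controls, as were the endothelial marker sum, carried by KDR, and the endoderm marker sum. The part of these sums in this was not tested. The log2 fold change was 0.91 (SE 0.15, adjusted p = 0.053 by edgeR) for alcohol against control and 0.67 (SE 0.15, adjusted p = 0.079) for co-treated against control. MIR1-1HG, the host gene set beside it, measured 17.14 and 16.11, then 15.67 and 15.13, then 14.82 and 11.46 FPKM, with a log2 fold change of -0.13 for alcohol against control (adjusted p = 0.865). The adjusted p of C20orf166-AS1 for alcohol against control was 0.0015 by DESeq2 and 0.0048 without alcohol library 1, and ranged from 0.0015 to 0.336 over all alternatives.

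EPB41L4A-AS1, a small gene that hosts SNORA13, measured 16.83 and 14.35 FPKM in control, 24.74 and 25.66 in alcohol and 27.78 and 23.68 in co-treated libraries. Its treated libraries were all above its controls, and the same marker sums moved with it, with their part not tested. The log2 fold change was 0.65 (SE 0.18, adjusted p = 0.179 by edgeR) for alcohol against control and 0.67 (SE 0.18, adjusted p = 0.123) for co-treated against control. EPB41L4A, a gene related to the band 4.1 proteins of the membrane skeleton, ran from 8.28 to 11.16 FPKM.

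The next higher genes were ZNF337-AS1 and PDCD4-AS1. ZNF337-AS1 measured 12.95 and 9.97 FPKM in control and 21.54 and 16.41 in alcohol libraries, a log2 fold change of 0.69 (adjusted p = 0.254 by edgeR). PDCD4-AS1, at the gene of an inhibitor of translation, measured 2.24 and 2.33 in control and 3.25 and 7.02 in alcohol libraries, a log2 fold change of 1.09 (adjusted p = 0.270). The alcohol libraries were above the controls for both, with alcohol library 2 apart for PDCD4-AS1. Without alcohol library 1 the value of PDCD4-AS1 was 1.52, with an adjusted p of 0.042, without alcohol library 2 it was 0.49 (adjusted p = 0.965 by edgeR), and its adjusted p ran from 0.042 to 0.965 over all alternatives.

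On the lower side CCDC183-AS1 had the smallest p, followed by ACTA2-AS1, RUSC1-AS1 and DENND5B-AS1. CCDC183-AS1 measured 10.45 and 10.23 FPKM in control, 6.80 and 5.55 in alcohol and 8.98 and 6.67 in co-treated libraries, a log2 fold change of -0.78 (SE 0.21, adjusted p = 0.179 by edgeR) with alcohol. CCDC183, with which it shares 503 exon bases, was at 18.55 to 21.52 FPKM. RUSC1-AS1 measured 15.41 and 25.61 in control and 14.05 and 8.87 in alcohol libraries (log2 fold change -0.87, adjusted p = 0.250). Without control library 2 its value was -0.46 and without alcohol library 2 it was -0.54. For both antisense genes the alcohol libraries lay under the controls, while the alcohol libraries of the sense genes overlapped theirs. RUSC1 ran from 6.02 to 6.74 FPKM over the 6 libraries. DENND5B-AS1 starts 519 bases from DENND5B, a gene of the family that activates Rab proteins in membrane traffic. It measured 19.93 and 15.56 FPKM in control, 10.34 and 7.99 in alcohol and 15.04 and 14.47 in co-treated libraries, a log2 fold change of -0.99 (SE 0.31, adjusted p = 0.253) with alcohol.

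**Figure D4:**
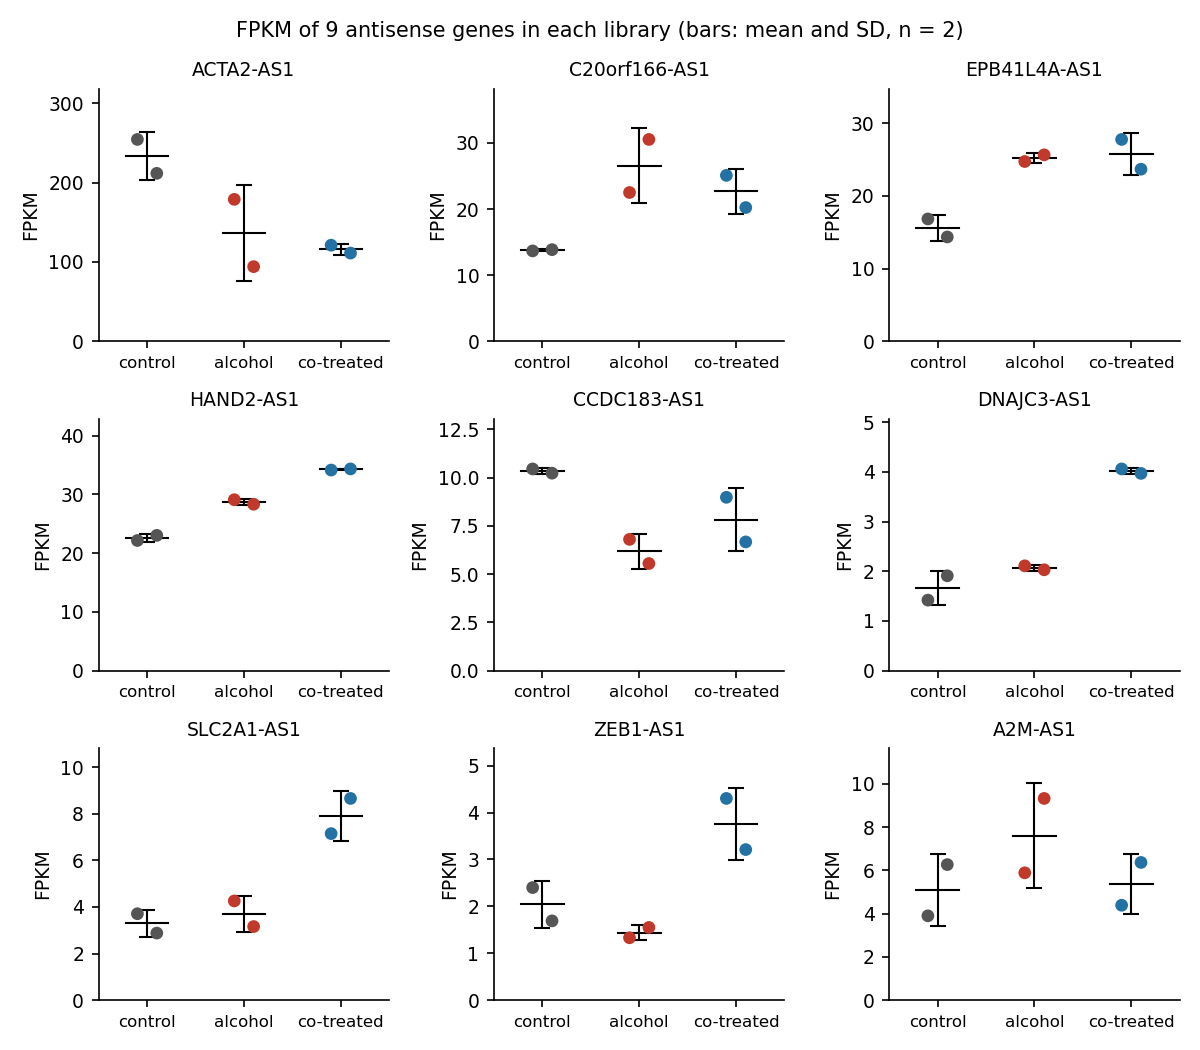
FPKM (vertical axes from 0) of 9 antisense genes in each library (points), by group on the horizontal axis, with bars for the mean and SD (n = 2). ACTA2-AS1 and CCDC183-AS1 are highest in control, C20orf166-AS1 and EPB41L4A-AS1 lowest in control, DNAJC3-AS1, SLC2A1-AS1 and ZEB1-AS1 highest in co-treated libraries, and A2M-AS1 overlaps between groups.

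Co-treated against alcohol asks what losartan added to alcohol. No antisense gene was called by edgeR, DESeq2 or limma, against 0.0134% of all genes tested by edgeR. At an unadjusted p of 0.05, 14 were higher (3.38%) and 4 lower (0.966%) in the co-treated libraries, against 2.84% and 2.71% of all genes tested. The smallest adjusted p was 0.636, for ZEB1-AS1.

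ZEB1-AS1 starts beside ZEB1, a repressor known from the change of epithelial into mesenchymal cells. It measured 2.40 and 1.69 FPKM in control, 1.33 and 1.55 in alcohol and 4.30 and 3.21 in co-treated libraries, on 15 to 47 counts. The co-treated libraries were above the other 4. Against alcohol it had a log2 fold change of 1.37 (SE 0.36), while ZEB1 itself ran from 9.26 to 12.88 FPKM.

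DNAJC3-AS1 and SLC2A1-AS1, whose promoter windows are printed above, had the same pattern of a higher level in both co-treated libraries. DNAJC3-AS1 measured 1.42 and 1.91 FPKM in control, 2.11 and 2.03 in alcohol and 4.06 and 3.97 in co-treated libraries. DNAJC3, the gene of a chaperone of the endoplasmic reticulum, ran from 7.13 to 9.05 FPKM. SLC2A1-AS1 measured 3.71 and 2.88, then 4.26 and 3.16, then 7.15 and 8.66 FPKM. Both divergent RNAs lay above the other 4 libraries in each co-treated library, and their sense genes did not separate in that way. SLC2A1, the glucose transporter GLUT1, spread widely within the alcohol group, at 35.07 and 14.02 FPKM, and measured 52.91 and 34.44 in co-treated libraries. Against alcohol the log2 fold change was 0.94 (SE 0.29, adjusted p = 0.784 by edgeR) for DNAJC3-AS1 and 1.09 (SE 0.35, adjusted p = 0.836) for SLC2A1-AS1.

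PRC1-AS1 followed the pattern of its sense gene. It measured 3.53 and 6.29 FPKM in control, 2.35 and 2.56 in alcohol and 7.55 and 4.07 in co-treated libraries. PRC1, which bundles microtubules at cell division, measured 24.62 and 36.68, then 16.66 and 20.53, then 30.08 and 22.53 FPKM. Both were lowest in the alcohol libraries, r was 0.90 over the 6 libraries, and the exons of the pair share 334 bases. Reads of PRC1-AS1 and PRC1 may therefore be mixed. Against alcohol PRC1-AS1 had a log2 fold change of 1.23 (SE 0.40, adjusted p = 0.836 by edgeR), which was 0.73 without co-treated library 1.

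The 4 on the lower side rested on few counts except ZSWIM8-AS1. RARA-AS1, which shares 328 exon bases with the retinoic acid receptor gene RARA, had 21 and 19 counts in control, 25 and 21 in alcohol and 10 and 9 in co-treated libraries. GNG12-AS1, at a gene of a G protein gamma subunit, had 16 and 9, then 13 and 13, then 5 and 4 counts. TIPARP-AS1, at the gene of an ADP-ribosyltransferase, had 17 and 24, then 20 and 29, then 11 and 14 counts. In these 3 genes the co-treated libraries were under the other 4, with adjusted p between 0.836 and 0.896. ZSWIM8-AS1, at a gene whose product directs the decay of microRNAs, measured 9.20 and 11.71 FPKM in alcohol and 6.56 and 7.89 in co-treated libraries, with controls of 7.71 and 8.42.

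Co-treated against control compares both agents together with none. No antisense gene was called by edgeR, against 0.362% of all genes tested, and limma also called 0, as did DESeq2 with an adjusted p for 291 of the antisense genes. At an unadjusted p of 0.05, 28 were higher (6.76%) and 9 lower (2.17%), against 6.26% and 6.37% of all genes tested. With only the 4 libraries of these groups in the fit, and likewise without alcohol library 1 or without alcohol library 2, edgeR called 2, ACTA2-AS1 (adjusted p of 0.0012 to 0.0016 in these 3 fits) and C20orf166-AS1 (0.039 to 0.044). The median log2 fold change of the 414 was 0.08. Alcohol against control shares its control libraries with this comparison, so their values are given side by side and are not independent.

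The genes with the smallest p here were ACTA2-AS1, C20orf166-AS1, DNAJC3-AS1 and CCDC18-AS1, with EPB41L4A-AS1 next. DNAJC3-AS1 had a log2 fold change of 1.22 (SE 0.29, adjusted p = 0.094 by edgeR). CCDC18-AS1 measured 6.16 and 5.27 FPKM in control, 6.59 and 8.24 in alcohol and 10.96 and 8.35 in co-treated libraries, a log2 fold change of 0.71 (SE 0.18, adjusted p = 0.120). Its treated libraries were all above its controls, and CCDC18, which lies apart from it, ran from 1.77 to 4.32 FPKM.

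On the lower side, IGFBP7-AS1 and TMPO-AS1 stood beside ACTA2-AS1 and RUSC1-AS1. IGFBP7-AS1, at the gene of a secreted binding protein of insulin-like growth factors, measured 12.13 and 13.01 FPKM in control, 11.14 and 10.32 in alcohol and 9.60 and 5.53 in co-treated libraries. Its log2 fold change was -0.78 (SE 0.26, adjusted p = 0.221 by edgeR), and IGFBP7 had -0.57 (adjusted p = 0.079). TMPO-AS1, at the gene of a lamina-associated protein, measured 4.80 and 6.19, then 3.80 and 4.37, then 4.31 and 3.01 FPKM, with -0.63 (SE 0.24, adjusted p = 0.290). In both genes the co-treated libraries lay under the controls. Without co-treated library 2 the value of IGFBP7-AS1 was -0.45 and that of TMPO-AS1 -0.41, and without co-treated library 1 that of IGFBP7-AS1 was -1.21. RUSC1-AS1 had -0.69 (SE 0.27, adjusted p = 0.301 by edgeR), which was -0.30 without control library 2.

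**Figure D5:**
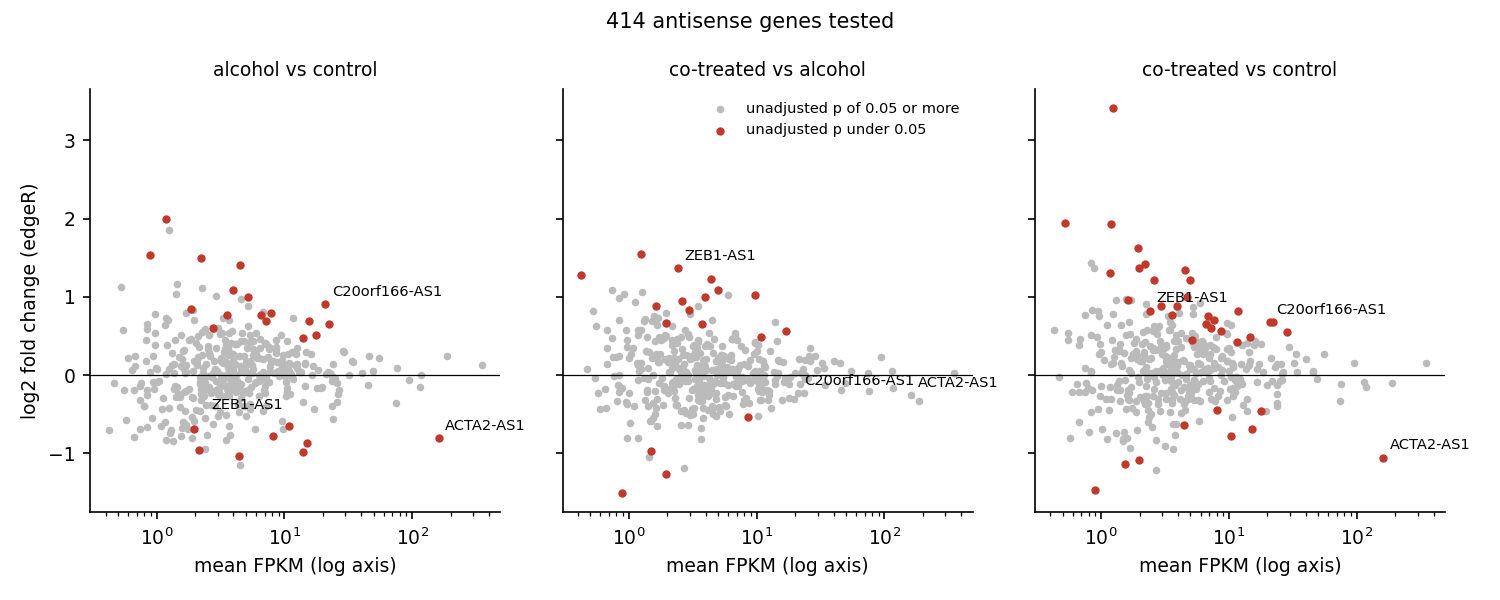
Log2 fold change by edgeR (vertical axis) against mean FPKM over the 6 libraries (horizontal log axis) for the 414 antisense genes tested, in 3 panels for the 3 comparisons, with unadjusted p under 0.05 in red. No gene passed an adjusted p of 0.05, and red points number 25, 18 and 37 from left to right.

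A list of 44 symbols drawn up for heart and muscle was looked up, of which 24 were in the table and 13 were tested. Not every sense gene of the list is particular to heart or muscle, and VIM, the sense gene of the tested VIM-AS1, is not. No member was called in any comparison by edgeR. Their median log2 fold change was 0.17 for alcohol against control, -0.01 for co-treated against alcohol and 0.22 for co-treated against control, beside medians of about 0.00 for all genes tested. At an unadjusted p of 0.05, 1 of the 13 was lower with alcohol (ACTA2-AS1), where 5.78% of all genes tested were. In co-treated against control 1 was higher (HAND2-AS1) and 1 lower (ACTA2-AS1), where 6.26% and 6.37% of all genes tested were, and in co-treated against alcohol the count was 0.

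HAND2-AS1 starts 229 bases from HAND2, a transcription factor of the right ventricle and outflow tract. It measured 22.16 and 23.03 FPKM in control, 29.10 and 28.33 in alcohol and 34.15 and 34.34 in co-treated libraries. The 3 groups did not overlap and the libraries within each lay close. The endothelial marker sum, carried by KDR, had the same order of groups, while PECAM1, CDH5 and VWF overlapped between groups. The part of these markers in this was not tested. For co-treated against control the log2 fold change was 0.55 (SE 0.18, adjusted p = 0.213 by edgeR). HAND2 measured 89.00 and 96.23, then 104.30 and 117.53, then 97.49 and 80.71 FPKM, so its co-treated libraries reached above and below its controls.

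NPPA-AS1, at the gene of atrial natriuretic peptide, measured 24.30 and 31.07 FPKM in control, 23.52 and 19.71 in alcohol and 17.30 and 26.03 in co-treated libraries. NPPA itself ran from 2363 to 4799 FPKM, highest in the control libraries. The co-treated libraries of NPPA-AS1 overlapped its controls. TBX5-AS1, beside the limb and heart factor TBX5, ran from 7.43 to 9.96 FPKM, and CACNA1C-AS1, at the gene of the main cardiac calcium channel, from 3.39 to 5.86 FPKM. Neither had an unadjusted p under 0.05 by edgeR in any comparison.

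Of 33 antisense genes taken by the symbol prefixes of developmental regulator families, 16 were tested and none was called by edgeR. The prefix PAX also took in PAXBP1-AS1, PAXIP1-AS1 and PAXIP1-AS2, each of them tested, whose sense genes are not members of the PAX family. With co-treated against control 3 of the 16 had an unadjusted p under 0.05, all higher, where 6.26% of all genes tested were higher, and the median log2 fold change was 0.26. HAND2-AS1, already counted in the heart and muscle list, was among these 3. With alcohol against control the count was 0, against 11.0% of all genes tested, and the median 0.05. With co-treated against alcohol 1 was higher (ZEB1-AS1), against 2.84%. HOXB-AS1, at the HOXB cluster that patterns the body axis, ran from 12.04 to 16.62 FPKM. The levels of the 33 ran from 0.017 FPKM for HOXA-AS3 to 55.1 FPKM for GATA6-AS1.

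Of 35 listed antisense genes with a described function, 26 were tested and none was called by edgeR. This list shares members with the lists above, such as HAND2-AS1, GATA6-AS1 and ZEB1-AS1, so the counts of the lists are not independent. The median log2 fold changes were 0.12 for alcohol against control, 0.08 for co-treated against alcohol and 0.17 for co-treated against control. At an unadjusted p of 0.05 the count was 0 for alcohol against control, 2 higher for co-treated against alcohol, and 4 higher and 1 lower for co-treated against control. Over all genes tested the shares were 11.0% in either direction, then 2.84% higher, then 6.26% higher and 6.37% lower. STARD4-AS1, at a gene of cholesterol transport, ran from 40.53 to 57.39 FPKM, OIP5-AS1 from 39.02 to 50.32 FPKM, and FGD5-AS1 from 35.86 to 45.49 FPKM. CDKN2B-AS1, known as ANRIL from the locus of the cell cycle inhibitors CDKN2A and CDKN2B, was low at 2.03 to 2.83 FPKM. BACE1-AS, at the gene of the amyloid protease, ran from 6.04 to 14.30 FPKM.

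Other noncoding genes of the table were read the same way. Of 576 intergenic LINC genes 210 (36.5%) were tested, with a median level of 0.463 FPKM, and of 20 snoRNA hosts named SNHG 18 were tested, with a median level of 10.5 FPKM. For alcohol against control an unadjusted p under 0.05 was found in 6.04% of the tested antisense genes, 7.62% of LINC genes, 11.1% of SNHG genes (2 of 18) and 13.3% of the 648 tested sense genes, beside 11.0% of all genes tested. For co-treated against alcohol the shares were 4.35%, 4.76%, 0 and 6.17% in the same order, beside 5.55% of all. For co-treated against control they were 8.94%, 7.14%, 5.56% and 13.0%, beside 12.6% of all, and there 1 LINC gene was called higher by edgeR. So the antisense share was under that of all genes tested and of the sense genes in each comparison, in genes with a larger SE. For alcohol against control the median SE was 0.38 for LINC genes and 0.17 for sense genes, against 0.35 for antisense genes. No test of the classes against each other was made.

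Summed over all 827, the antisense genes held 3819 and 3799 FPKM in control, 3863 and 4040 in alcohol and 4177 and 3760 in co-treated libraries. The group means were 3809 ± 14.0, 3951 ± 125 and 3968 ± 295 FPKM (SD, n = 2 each), and the share of all expected counts was 0.687% to 0.765% over the 6 libraries. The co-treated libraries lay on both sides of the controls. The sums are given as values with no test, and with 2 against 2 an exact two-sided permutation test could not go below 0.333.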

How the data were processed

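Groups follow the treatment named in the labels. The authors deposited 1 table per library, with expected counts, FPKM and transcript lengths by gene, plus 1 joint FPKM table with symbols. The submitters' processing notes name HISAT2 2.0.4, Bowtie2 2.2.5, RSEM 1.2.12 and hg38. Their roles and the strand setting are not given in the sources used here. Of the deposited expected counts 33.9% were not whole, and they were rounded for the count tests. Genes missing from a library's table were set to 0.

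edgeR 4.0.16 (R 4.3.3) fitted all 6 libraries by group, with TMM normalization, filterByExpr and a two-sided quasi-likelihood F test. The SE of a log2 fold change was its absolute value divided by the square root of F. P-values were adjusted by Benjamini-Hochberg over 14926 genes, with a threshold of 0.05. Alternatives were DESeq2 1.42.0, limma 3.58.1 on log2 FPKM with pseudocounts of 1 and 0.1, RLE size factors in edgeR, no filter, 10 counts in every library, the replicate block, only the 4 libraries compared and each library left out. On simulated data of alcohol against control with 14814 genes, 44% of genes changed by a log2 of 1 and 93% of those changed by 2 were recovered, with 4 false calls. The simulation gave every gene the same spread between replicates and drew the changed genes from all genes that passed the filter. These rates do not describe the antisense genes, whose median SE was 0.35 for alcohol against control, against 0.19 for all genes tested. Depth was 4898287 to 5051448 expected counts. Gene records and promoter windows came from RefSeq (GRCh38.p14), and strand and exons from GENCODE 29. Shared exon bases were given only where the model was within 25% of the deposited length.

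The genes named were ACTA2-AS1 and A2M-AS1, the 10 with the highest mean FPKM, for each comparison the 4 higher and 4 lower with the smallest p, the 5 pairs with the highest antisense to sense ratio, and 2 to 4 of each list. Of these, 1 is not reported here. The members and lists were chosen with earlier results of these data known. Some listed symbols of the heart and muscle list were not found and were left out.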

Additional observations from a re-analysis of the deposited data

How the results depend on the processing

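For alcohol against control the count of 0 antisense genes called became 1 with 10 counts in every library, 1 with the replicate block and 1 with DESeq2 (C20orf166-AS1 each time), and ran from 0 to 3 when 1 library was left out. For co-treated against control it became 1 with the replicate block (ACTA2-AS1, adjusted p = 0.014 by edgeR) and 2 with only the 4 libraries compared, and ran from 0 to 2 when 1 library was left out. For co-treated against alcohol it was 0 under all 14 alternatives. The same replicate numbers were not shown to pair the libraries: the deviations of libraries with the same number had correlations of 0.11, -0.02 and 0.04, and the 2 new calls are the effect of the block on the counts of calls. At an unadjusted p of 0.05, the 17 higher and 8 lower ran from 6 to 32 and 4 to 14, the 14 and 4 of co-treated against alcohol from 6 to 24 and 0 to 12, and the 28 and 9 of co-treated against control from 9 to 46 and 3 to 16. DESeq2, over all 827 genes, gave the low end of each range, though not alone for the lower genes of co-treated against control. It gave an adjusted p for 28 of the 827 in alcohol against control and 291 in co-treated against control. ACTA2-AS1 for co-treated against alcohol turned from -0.25 to 0.32 without alcohol library 1 (range -0.67 to 0.32 when 1 library was left out), and A2M-AS1 for co-treated against control from 0.04 to -0.25 without control library 1 and -0.27 without co-treated library 2 (range -0.27 to 0.41), none of them called. The cause was not tested. The count of detected genes was 309 with 10 counts in every library in place of 723, since that filter is stricter, and 719 to 728 when 1 library was left out. The share of antisense genes above their sense gene was 15.7% by CPM, which is not scaled by length, and 20.0% with 10 counts of both, and ran from 21.3% to 22.6% when 1 library was left out. The summed FPKM of alcohol relative to control was 3.74% higher, with a range of 1.42% to 6.06% when 1 library was left out, and that of co-treated 4.18% higher, with a range of -1.29% to 9.65%. At this depth 199 antisense genes with at most 3 counts in every library cannot be compared.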

Other observations

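Of the 6 antisense genes that RefSeq now records as protein coding, 4 were tested. TOPORS-AS1, now SMIM27, ran from 9.35 to 14.32 FPKM, NCBP2-AS2 from 10.39 to 13.66, MMP24-AS1 from 9.42 to 11.29 and SPTY2D1-AS1 from 1.15 to 4.17 FPKM. None of the 4 had an unadjusted p under 0.05 by edgeR in any comparison. AATK-AS1 was at 0 to 0.63 FPKM, and TMPRSS4-AS1 was above 0 only in alcohol library 1.

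A snoRNA lies inside 9 antisense genes. Beside LRRC75A-AS1 and EPB41L4A-AS1 these included THAP9-AS1, with SNORD143 and SNORD144 inside it, at 15.33 to 18.48 FPKM, and STARD7-AS1, with SNORA112, at 6.84 to 8.34 FPKM. THAP9-AS1 and STARD7-AS1 had log2 fold changes of 0.11 and -0.09 for alcohol against control and of 0.08 and -0.17 for co-treated against control, all with an unadjusted p above 0.05 by edgeR. EPB41L4A-AS1 was the only one of the 8 tested hosts with an unadjusted p under 0.05 by edgeR, in alcohol against control, beside 11.0% of all genes tested, and in co-treated against control, beside 12.6%.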
